A study of Mus musculus with 18 samples.

Results

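The 10 genes described here are transcription factors that set the identity and fate of mature B cells: Pax5, Ebf1, Spib, Bcl6, Bach2, Irf8, Irf4, Batf, Prdm1 and Xbp1. They were chosen by name for that role, from 28374 genes that could be matched between the tables of both parental strains, and all 10 were found once in each table and tested on each allele. The cells were CD23+ B cells from the spleen of female mice. The labels give the mice as F1 129S1/Cast; Xist+/-, by which each autosomal gene had a 129S1 copy and a Cast copy. Naive and stimulated animals alike carried the Xist mutation. By the labels the X chromosome from Cast is the silent one in every such cell. The share of reads from Cast at some autosomal genes, such as Emc10, followed the replicate number (see the other observations). Whether every animal held both copies there was not tested. One group of 3 samples was naive with no treatment, and the other 3 samples were treated in vitro with 1 µM CpG for 24 h. CpG oligonucleotides imitate microbial DNA and are sensed by TLR9, a receptor in the endosomes of B cells. No cultured but unstimulated group is among these 6 samples, so the effects of CpG and of culture cannot be told apart. The labels do not say whether samples of a group came from separate mice, so p-values measure the spread between these samples, which may be technical.

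Pax5 and Ebf1 hold B cells in their lineage, and Spib, an Ets factor, supports receptor signalling in mature B cells. Bcl6 drives the germinal centre reaction and, with Bach2, represses Prdm1, which encodes Blimp-1. Blimp-1 in turn shuts down Pax5, Bcl6 and Spib as a B cell becomes a plasma cell, while Xbp1 expands the secretory machinery. Irf4 and Irf8 are related factors that bind DNA with Ets or AP-1 partners, and Batf is the AP-1 partner that works with Irf4 in class switching and plasma cell formation.

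The reference promoters of the genes that carry the main results are shown first: Batf and Prdm1, which rose most, Spib, which fell most, and Irf4, whose copies responded unequally. Each is the stretch of 250 bases before a RefSeq start in GRCm38.p6, written 5′ to 3′ on the gene's strand, with motif matches in capitals. They are the reference strain's sequence, not that of 129S1 or Cast. The Prdm1 start used lies inside its locus, chr10:44437174-44528558, and no window covers the locus's upstream end. The same holds for Bach2, whose window is not printed.
Batf, chr12:85686470-85686719, plus strand: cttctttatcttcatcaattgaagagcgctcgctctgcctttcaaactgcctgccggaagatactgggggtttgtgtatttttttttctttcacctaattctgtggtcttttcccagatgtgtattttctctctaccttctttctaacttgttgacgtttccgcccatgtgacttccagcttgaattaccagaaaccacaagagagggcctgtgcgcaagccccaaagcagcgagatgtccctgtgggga
Prdm1, chr10:44458749-44458998, minus strand: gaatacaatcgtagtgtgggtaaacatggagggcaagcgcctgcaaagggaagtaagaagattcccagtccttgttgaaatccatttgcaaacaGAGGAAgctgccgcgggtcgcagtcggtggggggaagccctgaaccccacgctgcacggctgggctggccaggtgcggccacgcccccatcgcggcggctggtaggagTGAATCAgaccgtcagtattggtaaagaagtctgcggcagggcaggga
Spib, chr7:44532072-44532321, minus strand: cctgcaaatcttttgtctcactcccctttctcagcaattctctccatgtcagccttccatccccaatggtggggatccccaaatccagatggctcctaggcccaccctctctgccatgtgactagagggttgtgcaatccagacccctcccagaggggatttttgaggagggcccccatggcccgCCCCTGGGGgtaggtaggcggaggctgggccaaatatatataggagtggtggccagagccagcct
Irf4, chr13:30748983-30749232, plus strand: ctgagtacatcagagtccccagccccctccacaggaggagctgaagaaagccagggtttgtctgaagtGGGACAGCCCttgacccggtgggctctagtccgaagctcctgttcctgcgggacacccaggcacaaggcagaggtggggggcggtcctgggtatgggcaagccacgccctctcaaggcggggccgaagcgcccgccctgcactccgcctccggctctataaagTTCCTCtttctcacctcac
Motifs were searched on both strands: AP-1 (TGANTCA), the composite Ets-IRF element (GGAA, any 2 bases, GAAA), the interferon response element (GAAA, any 2 bases, GAAA), the ER stress element (CCAAT, any 9 bases, CCACG), an EBF site (CCCNNGGG), a BCL6 site (TTCNNNGAA), an NF-kB site (GGGA, any 4 bases, CC), a PU box (GAGGAA) and the MARE that BACH2 binds (TGC followed by the AP-1 letters), which therefore contains an AP-1 match. Prdm1 held an AP-1 match that began 48 bases before the start, as 6.75% of 32851 reference windows did, and a PU box, as 23.3% did. The capitals in Spib are overlapping EBF matches, found in 11.8% of windows. Irf4 held an NF-kB match, as 17.6% of windows did, and a PU box 19 bases before its start. The Batf window held none of these letters. The 10 genes had 13 windows, of which 4 held a BCL6 match, 4 an NF-kB match, 4 a PU box, 2 an Ets-IRF element, 1 an AP-1 match, 1 an EBF match, 1 an interferon response element, and 0 an ER stress element or a MARE. The BCL6 matches, found in 7.02% of all windows, were those of Bach2, Irf8 and both windows of Bcl6 itself, and the Ets-IRF elements were in windows of Bach2 and Bcl6. For the other motifs the share of all windows was 2.30% (Ets-IRF element), 2.98% (interferon response element), 0.113% (ER stress element) and 0.353% (MARE). A match describes letters only and is not evidence of binding.

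Gene counts summed to between 1987266 and 2928236 reads per sample in the 129 tables and to between 2465073 and 3321753 in the Cast tables. Levels are given as CPM, the reads of a gene per 1000000 reads of one strain's scaled total. Reads that can be given to a strain depend on how many variants a transcript holds, so levels were compared within a gene and not between genes. The samples' labels were checked on markers. The 8 B cell marker genes summed to between 9282 and 11758 CPM in naive and between 3275 and 4885 CPM in stimulated samples on the 129 allele. A list of 16 macrophage markers summed to between 3362 and 7428 CPM in naive samples, highest in replicate 1 and lowest in replicate 2, and to between 29.8 and 38.5 CPM after CpG. On that allele 15 of the 16 had stimulated values that all lay below the lowest naive value, and 3 of the 16 had no read after CpG. The 9 T cell markers summed to between 47.4 and 60.7 CPM and then to between 4.67 and 9.22 CPM, of which Cd4 alone gave 36.1, 19.9 and 36.1 CPM in naive samples and 0 reads after CpG. Of the 9, 3 had enough reads to be tested and 2 of those were lower. Conventional dendritic cell markers, on the same allele, summed to between 19.9 and 53.8 CPM in naive and between 8.03 and 16.7 CPM in stimulated samples. Plasmacytoid dendritic cell markers gave 29.6 to 45.6 and 35.6 to 65.1 CPM there, most of it Bst2. On that allele Siglech went from 12, 14 and 10 reads to 0 and Ccr9 from 0 reads to 11, 27 and 4. On the Cast allele the plasmacytoid sum went from between 35.6 and 38.6 to between 67.8 and 81.1 CPM, with no overlap. Natural killer cell markers stayed at or below 13.0 CPM in every sample, and neutrophil markers at or below 24.1 CPM on the 129 and 28.4 CPM on the Cast allele. After CpG nearly all neutrophil marker reads were from Mmp8, which rose on each allele. Irf8, Irf4, Bcl6, Prdm1, Spib and Batf are expressed by some of these cell types too, and the part of such cells in the naive levels was not tested. In bulk RNA, fewer cells of a type and less RNA per cell cannot be told apart. Xist, the mutated gene, had 4613 to 6930 reads from Cast and 586 to 922 from 129 per sample.

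**Figure D1:**
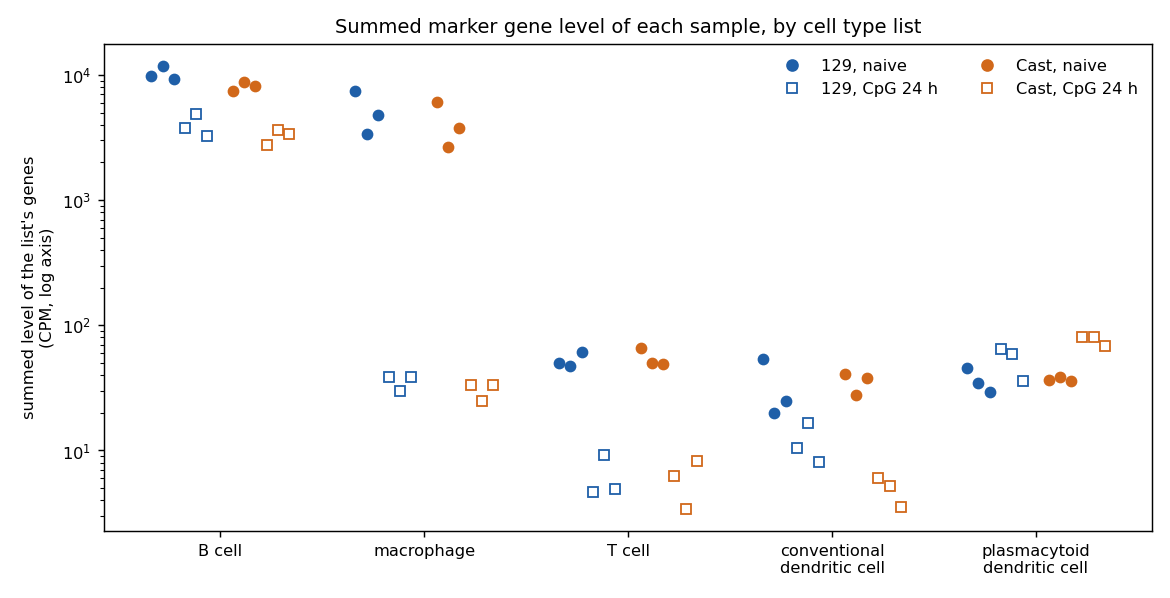
Summed level of each cell type's marker genes in CPM on a log axis, by sample, with naive samples as filled circles and CpG samples as open squares, blue for the 129 and orange for the Cast tables. Macrophage markers stand between 3362 and 7428 CPM in the naive samples on the 129 allele and between 29.8 and 38.5 CPM after CpG.

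After CpG the fate factors moved in opposite directions. Spib, Ebf1, Bcl6 and Pax5 fell on each allele, and Batf, Prdm1 and Xbp1 rose on each. Bach2 passed the test on neither allele. Irf8 rose and Irf4 fell on the 129 allele, and neither passed on the Cast allele. The test was edgeR's quasi-likelihood fit of each strain's table, with a threshold of 0.05 on the adjusted p. On the 129 allele it called 9 of the 10, of which 4 were higher and 5 lower, where 55.2% of all 10581 genes tested were called. On the Cast allele it called 7 of the 10, of which 3 were higher and 4 lower, where 62.2% of 10365 genes were called. The groups did not overlap for those same numbers of factors, 9 and 7, against 64.8% and 68.5% of all genes. Both alleles were called in 1 direction for 7 of the 10, against 48.9% of 8654 genes tested on both. Of these, 3 rose and 4 fell, where 25.0% and 23.9% of all genes did. So many genes differed that these counts alone do not set the factors apart. The median absolute log2 fold change over all genes was 0.83 on the 129 and 0.84 on the Cast allele, a size that Batf, Prdm1, Xbp1, Spib and Ebf1 exceeded on each allele.

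**Figure D2:**
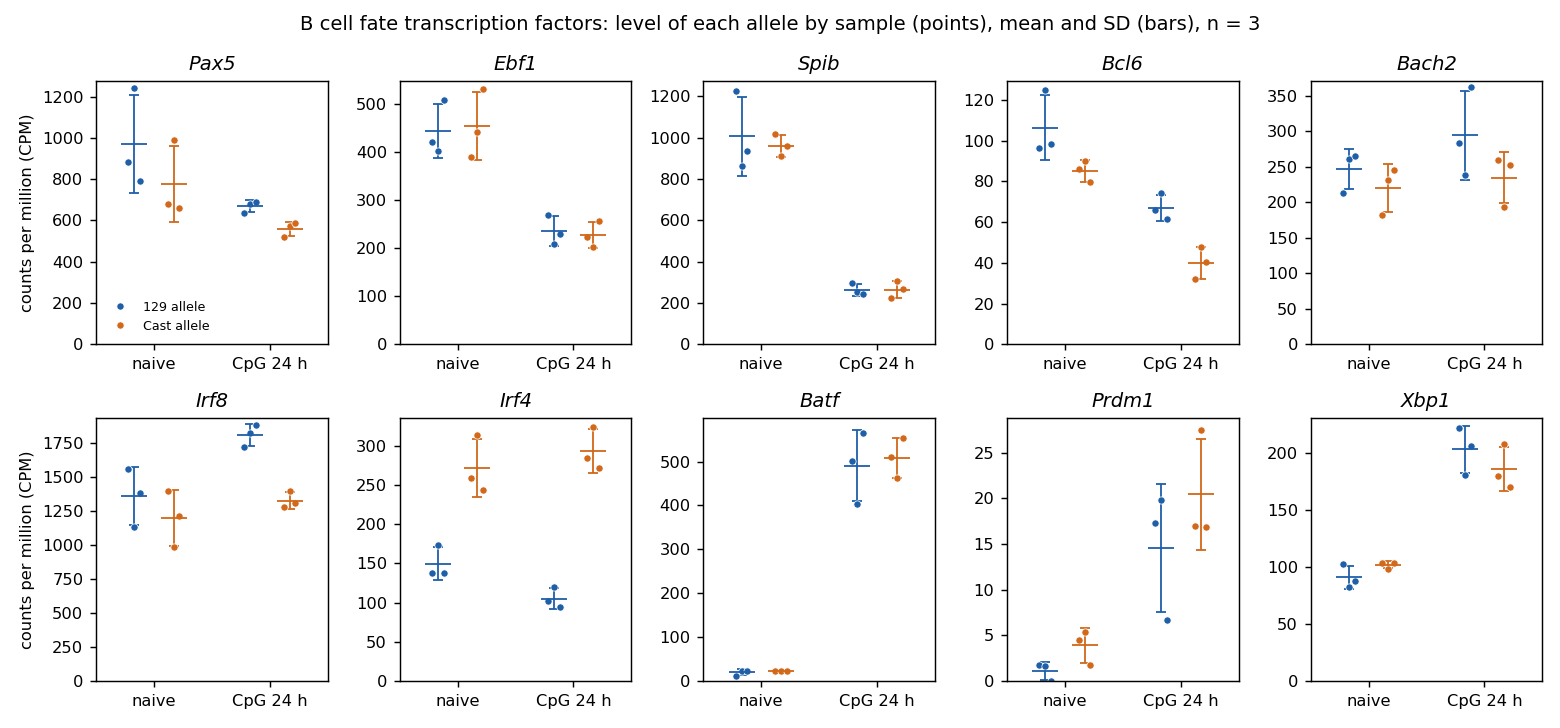
Level of each factor in CPM (linear axes from 0), with 1 point per sample, blue for the 129 and orange for the Cast allele, and bars for the mean and SD of 3 samples. Mean Batf goes from 19.3 to 491 CPM on 129 and from 22.0 to 508 CPM on Cast, while Spib falls from 1007 to 264 CPM on 129.

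Of the factors that maintain B cell identity, Spib fell furthest. On the 129 allele Spib stood at 1224, 863 and 934 CPM in naive replicates 1, 2 and 3 and at 297, 252 and 243 CPM in the stimulated ones. On the Cast allele it went from 1015, 909 and 959 CPM to 223, 304 and 267 CPM. Every stimulated sample lay far below every naive one. Among naive samples replicate 1 was the highest and replicate 2 the lowest on each allele, which is also the order of the macrophage markers, whose part in the fall was not tested. The change was 3.81-fold lower on 129 (log2 -1.93, SE 0.17, edgeR adjusted p = 7.46e-05) and 3.63-fold lower on Cast (log2 -1.86, SE 0.15, edgeR adjusted p = 6.46e-06).

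Ebf1, the early B factor that acts upstream of Pax5, fell by nearly equal amounts on each copy. Its 129 levels were 422, 403 and 508 CPM in naive and 269, 209 and 229 CPM in stimulated samples. Its Cast levels were 390, 441 and 531 CPM before and 223, 203 and 257 CPM after. The groups did not overlap on either allele. Its log2 fold change was -0.91 (SE 0.14, edgeR adjusted p = 0.00124) on 129 and -0.996 (SE 0.15, edgeR adjusted p = 3.71e-04) on Cast.

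Pax5, the factor that commits cells to the B lineage, fell less. The 129 allele read 882, 1240 and 793 CPM in naive samples and 638, 682 and 692 CPM after CpG. The Cast allele read 681, 990 and 659 CPM and then 520, 573 and 586 CPM. The stimulated samples were close to each other and below all naive ones, and naive replicate 2 was the highest. On the log2 scale Pax5 changed by -0.53 (SE 0.17, edgeR adjusted p = 0.0330) on 129 and by -0.47 (SE 0.17, edgeR adjusted p = 0.0366) on Cast. Without naive replicate 2 it was -0.32 (edgeR adjusted p = 0.0518) and -0.23 (edgeR adjusted p = 0.137). The call was also lost on each allele without any single stimulated replicate, with adjusted p up to 0.139.

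Bcl6, the repressor that drives the germinal centre programme, was lower on each allele. It had 96.4, 125 and 98.3 CPM in naive and 65.8, 74.1 and 61.4 CPM in stimulated samples on the 129 allele. On the Cast allele it had 85.9, 90.2 and 79.5 CPM and then 31.8, 47.8 and 40.2 CPM. The groups were apart on each allele. Bcl6 changed on the log2 scale by -0.67 (SE 0.15, edgeR adjusted p = 0.00764) on 129 and by -1.09 (SE 0.17, edgeR adjusted p = 4.28e-04) on Cast. The difference between these responses did not pass its own test, given with the allele ratios.

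Bach2, which restrains plasma cell formation, did not pass on either allele. Its 129 levels were 214, 261 and 265 CPM in naive and 283, 239 and 362 CPM in stimulated samples, and its Cast levels were 182, 231 and 246 CPM and 259, 193 and 252 CPM. The groups overlapped on each allele. Its log2 fold change was 0.26 (SE 0.17, edgeR adjusted p = 0.244) on 129 and 0.10 (SE 0.16, edgeR adjusted p = 0.617) on Cast.

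Irf8, an interferon regulatory factor of B cells and myeloid cells, was higher on the 129 allele. There it stood at 1556, 1133 and 1380 CPM in naive and 1715, 1822 and 1878 CPM in stimulated samples, which did not overlap. The Cast allele gave 1394, 986 and 1212 CPM and then 1276, 1394 and 1305 CPM, which overlapped. On each allele naive replicate 1 was the highest naive sample and replicate 2 the lowest, the order of the macrophage markers. The log2 fold change was 0.41 (SE 0.14, edgeR adjusted p = 0.0366) on 129 and 0.15 (SE 0.15, edgeR adjusted p = 0.422) on Cast. The 129 call was lost without naive replicate 2, naive replicate 3 or any single stimulated replicate, with log2 changes from 0.30 to 0.46 and adjusted p from 0.0636 to 0.112. Summing the alleles gave 0.32 (edgeR adjusted p = 0.0600).

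Irf4, the related factor that rises with activation and in plasma cells, differed between its alleles. On the 129 allele it went from 137, 174 and 138 CPM to 101, 120 and 94.2 CPM. On the Cast allele it went from 259, 314 and 244 CPM to 285, 324 and 272 CPM. The 129 values were lower in every stimulated sample, while the Cast values overlapped. The 129 copy of Irf4 changed by -0.51 (log2, SE 0.15, edgeR adjusted p = 0.0226) and the Cast copy by 0.11 (SE 0.14, edgeR adjusted p = 0.516). With the alleles summed it was -0.032 (SE 0.12, edgeR adjusted p = 0.833). The 129 call was lost without naive replicate 2 and without stimulated replicate 1 or 3, with adjusted p from 0.0696 to 0.0845.

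Batf had the highest fold change of the 10 on each allele. The 129 copy had 27, 55 and 47 reads in naive samples and 1397, 1140 and 1620 after CpG, or 11.6, 22.9 and 23.6 CPM and then 502, 404 and 565 CPM. The Cast copy had 57, 60 and 53 reads and then 1619, 1498 and 1869 reads. All stimulated samples were far above all naive ones. The rise was 25.4-fold on 129 (log2 4.66, SE 0.29, edgeR adjusted p = 2.84e-05) and 23.1-fold on Cast (log2 4.53, SE 0.14, edgeR adjusted p = 5.25e-07). Summing the alleles gave a log2 change of 4.63.

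Prdm1 rose from a very low level. The 129 copy had 4, 4 and 0 reads in naive and 48, 56 and 19 in stimulated samples, and the Cast copy had 12, 15 and 4 and then 54, 89 and 57. Stimulated replicate 3 was the lowest stimulated sample on the 129 allele, at 6.63 CPM against 17.3 and 19.8 CPM in replicates 1 and 2. The log2 fold change was 3.58 (SE 0.75, edgeR adjusted p = 0.00489) on 129 and 2.36 (SE 0.40, edgeR adjusted p = 7.37e-04) on Cast. The fold is imprecise at this depth.

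Xbp1, a factor of the unfolded protein response, rose on each allele. It went from 102, 82.3 and 87.2 CPM to 222, 181 and 206 CPM on 129, and from 104, 98.5 and 104 CPM to 180, 208 and 170 CPM on Cast. The groups did not overlap. The rise was 2.24-fold on 129 (log2 1.16, SE 0.14, edgeR adjusted p = 3.19e-04) and 1.82-fold on Cast (log2 0.87, SE 0.12, edgeR adjusted p = 2.43e-04). Gene counts do not show whether the Xbp1 message was spliced to its active form.

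**Figure D3:**
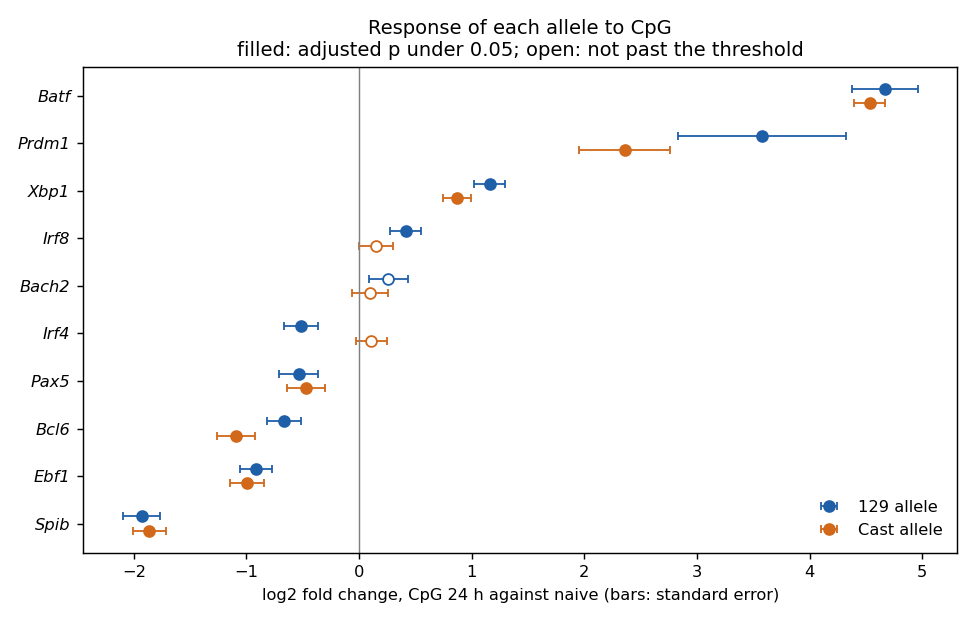
Log2 fold change of each factor after CpG with its standard error (x axis), for the 129 allele in blue and the Cast allele in orange. Filled points passed an adjusted p of 0.05. The points of Irf4 lie on opposite sides of 0, at -0.51 and 0.11, and those of Batf at 4.66 and 4.53.

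The Cast share of a gene's reads shows the balance of its copies within each library. Over all autosomal matched genes it averaged 52.7% ± 0.793 before and 52.9% ± 0.812 after stimulation (SD, n = 3). Irf4 stood far from this. In naive replicates 1, 2 and 3 it had 68.3% (95% Wilson interval 65.4 to 71.1), 67.5% (64.9 to 70.0) and 67.3% (64.0 to 70.3) of its reads from Cast. After CpG it had 76.2% (73.7 to 78.5), 75.7% (73.4 to 77.9) and 77.3% (74.8 to 79.6). The intervals of samples in a group overlapped each other, and the intervals of the groups did not. On average the share went from 67.7% ± 0.554 to 76.4% ± 0.810 (SD, n = 3), or up by 8.69 percentage points.

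Whether CpG shifted the balance was tested as an edgeR interaction of allele and treatment over 10364 genes, of which 0.917% passed (0.482% toward Cast and 0.434% toward 129). In this fit, which has no replicate block, Irf4 was the 1 factor of the 10 that passed. Its ratio rose by 0.63 on the log2 scale (SE 0.092, edgeR adjusted p = 0.0341), and with the replicate number as a block by 0.62 (edgeR adjusted p = 4.35e-05). Leaving out any 1 of the 6 samples kept the rise between 0.59 and 0.65 but put the adjusted p between 0.111 and 0.143. The Irf4 ratio itself favoured Cast before and after CpG. It was 1.07 in naive (SE 0.066, edgeR adjusted p = 3.00e-05) and 1.69 in stimulated cells (SE 0.067, edgeR adjusted p = 3.56e-06) as a log2 ratio.

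Irf8 moved the other way by less. Cast supplied 50.6%, 50.1% and 50.6% of its reads in naive samples, and 45.9%, 46.8% and 45.0% in stimulated ones, with no overlap. The log2 ratio change was -0.26 (SE 0.059), which did not pass without the block (edgeR adjusted p = 0.114) and passed with it (edgeR adjusted p = 0.0147). The block also raised the number of all genes called, from 95 to 779. After CpG the Irf8 ratio stood at -0.24, toward 129 (SE 0.042, edgeR adjusted p = 0.00483), and in naive cells at 0.024 (edgeR adjusted p = 0.715).

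For Bcl6, Cast supplied 50.4%, 45.5% and 48.6% of the reads before CpG and 35.6%, 42.6% and 43.6% after it. The groups were apart, but the ratio change of -0.44 (SE 0.18) did not pass (edgeR adjusted p = 0.415, and 0.140 with the block). In stimulated cells its ratio of -0.55 toward 129 passed (SE 0.13, edgeR adjusted p = 0.0178), and it was lost without stimulated replicate 1 (-0.40, adjusted p = 0.0844) or 2 (-0.61, adjusted p = 0.0521).

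Prdm1 had 75.0%, 78.9% and 100% of its naive reads from Cast, on 16, 19 and 4 reads. After CpG the shares were 52.9%, 61.4% and 75.0%. Its naive log2 ratio of 1.97 passed narrowly (SE 0.59, edgeR adjusted p = 0.0456). Leaving out any naive sample, or stimulated replicate 1 or 2, lost that call, with adjusted p from 0.0508 to 0.165, as did a library size for each strain table (1.84, adjusted p = 0.0535). The change of the ratio was not detectable at this depth (log2 -1.20, SE 0.69, edgeR adjusted p = 0.621).

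The other 6 factors, Pax5, Ebf1, Bach2, Xbp1, Spib and Batf, did not pass in either group or for the change. With a library size for each strain table the naive ratio of Pax5 moved from -0.12 to -0.26 and passed (edgeR adjusted p = 0.00681). Leaving out 1 sample made a call for Xbp1 in naive cells (without stimulated replicate 2, 0.38, adjusted p = 0.0281). It also did so in stimulated cells for Spib (without stimulated replicate 1, 0.42, adjusted p = 0.0335) and Batf (without naive replicate 1, 0.27, adjusted p = 0.0318). Their mean Cast shares lay between 48.0% (Pax5) and 57.7% (Batf) in naive samples and between 48.1% (Bach2) and 54.7% (Batf) in stimulated ones. Ratio changes ran from -0.30 (Xbp1, SE 0.17, edgeR adjusted p = 0.604) to 0.063 (Pax5, SE 0.073, edgeR adjusted p = 0.875). For comparison, 26.6% of all genes passed the ratio test in naive cells, 55.4% of them toward Cast, and 26.7% in stimulated cells. With a library size of its own for each strain table the share toward Cast was 41.1% in naive cells, and Irf4 still favoured Cast there. Of the 10 factors 2 passed in naive and 3 in stimulated cells. How reads were given to a strain is not stated in the sources used here, and its part in a steady imbalance was not tested.

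**Figure D4:**
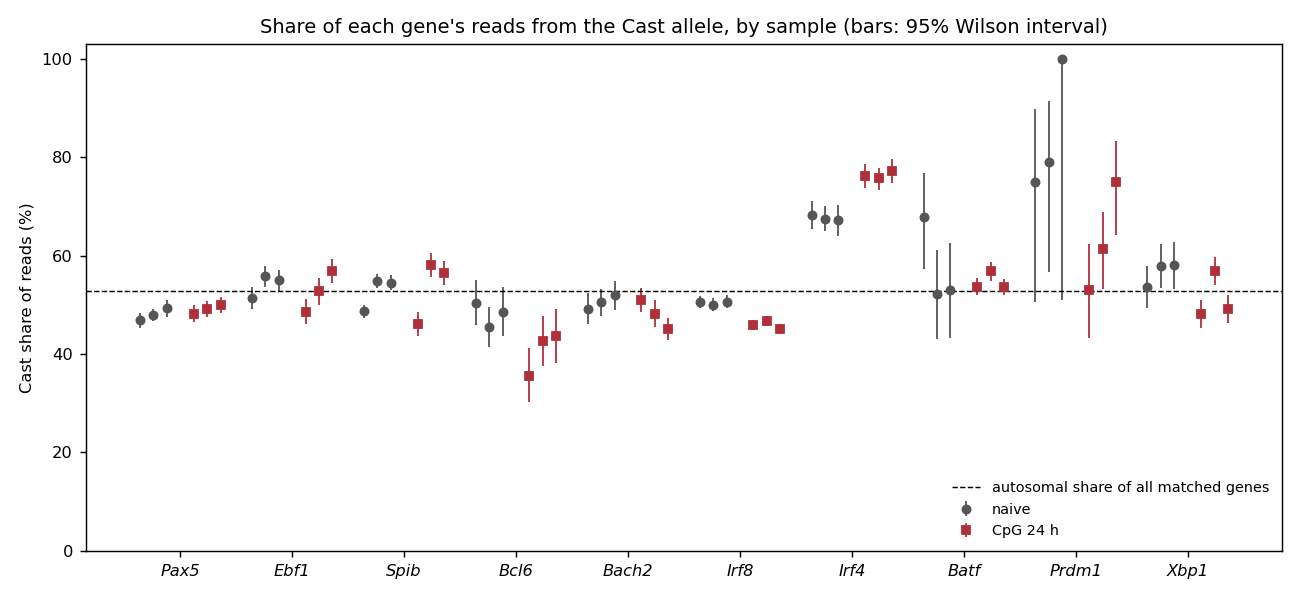
Cast share of reads in percent (y axis) for each factor and sample, with 95% Wilson intervals, grey circles for naive and red squares for CpG samples. The dashed line is the autosomal share of all matched genes. Irf4 lies between 67.3% and 68.3% in naive and between 75.7% and 77.3% in stimulated samples, and Prdm1 has wide intervals on few reads.

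Genes that Pax5 is known to activate fell together on each allele. On the 129 allele 9 of the 10 listed genes passed and were lower, against 27.0% of all genes, and on the Cast allele 8 of 8 tested were lower, against 31.5%. The list's median log2 fold change was -2.16 and -1.81, where the median over all genes was -0.012 and -0.035. Ciita, the master regulator of MHC class II genes, fell from 1317 ± 65.0 to 99.8 ± 46.3 CPM on 129 and from 1307 ± 158 to 223 ± 78.0 CPM on Cast (SD, n = 3). Its log2 fold changes were -3.72 and -2.55 (edgeR adjusted p = 1.61e-04 and 1.82e-05). Cr2, the complement receptor CD21, had log2 fold changes of -2.60 on 129 and -2.50 on Cast (edgeR adjusted p = 4.97e-05 and 3.62e-05). Pax5 itself changed by -0.53 and -0.47.

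Partners of the identity factors included genes that rose and genes that fell. Of 14 listed, 12 were tested on 129, with 3 higher and 6 lower, and 13 on Cast, with 3 higher and 7 lower. The shares of all genes that were higher and lower were 28.2% and 27.0% on 129 and 30.7% and 31.5% on Cast. The count of higher partners is therefore near or below the background, and that of lower partners is above it, on few genes. Macrophage markers fell between the same samples, and their part in the partners' falls was not tested. Zfp318, which allows IgD to be made in mature B cells, fell, with log2 fold changes of -3.04 on 129 and -2.51 on Cast (edgeR adjusted p = 9.95e-05 and 1.24e-05). Ets1, an Ets factor that restrains plasma cell differentiation, fell as well, at -2.60 and -2.46 (edgeR adjusted p = 2.33e-04 and 5.09e-06). Pou2f2, which encodes OCT2, rose by 0.78 and 0.86 (edgeR adjusted p = 0.00123 and 0.00127). Tcf3, the E protein E2A, rose by 0.50 and 0.65 (edgeR adjusted p = 0.0100 and 0.00270).

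Among 8 germinal centre genes 4 were tested on each allele, and of those tested 2 rose and 0 fell on each. Genes with too few reads were not tested. Over both alleles Gcsam had 20, 7 and 2 reads in naive and 0, 0 and 0 in stimulated samples. Nuggc had 10, 25 and 3 and then 1, 8 and 1, and S1pr2 had 3, 7 and 7 and then 9, 4 and 6. The 28.2% and 30.7% of all genes that rose are the background. Mybl1, a MYB family factor of germinal centre cells, rose by 3.20 on 129 and 3.15 on Cast (log2, edgeR adjusted p = 0.00611 and 3.48e-05). It is the 1 gene of the list that passed on both. Its naive 129 reads were 7, 21 and 1, and without naive replicate 2 the 129 change was 4.38 (edgeR adjusted p = 0.00144). Bcl6, the factor that drives that programme, was lower.

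Of 10 plasma cell genes, 5 were tested on 129, with 1 higher and 2 lower, and 8 on Cast, with 3 higher and 2 lower. With so few genes these counts do not stand apart from the shares of all genes that were higher and lower (28.2% and 27.0% on 129, 30.7% and 31.5% on Cast). Mzb1, a chaperone of immunoglobulin assembly, rose from 112 ± 13.4 to 406 ± 15.9 CPM on 129 and from 98.3 ± 10.8 to 420 ± 28.7 CPM on Cast (SD, n = 3). The log2 fold changes of Mzb1 were 1.86 and 2.09 (edgeR adjusted p = 2.57e-05 and 2.18e-06). Jchain, which joins secreted IgM and IgA, fell, with log2 fold changes of -2.39 on 129 and -1.47 on Cast (edgeR adjusted p = 0.00164 and 0.00143). Slamf7, a surface receptor of plasma cells, fell too, at -1.09 and -1.04 (edgeR adjusted p = 0.0186 and 0.00388), and its 129 call was lost without naive replicate 2 or stimulated replicate 1 or 2 (adjusted p up to 0.0666). Macrophage markers fell between the same samples, from between 3362 and 7428 to between 29.8 and 38.5 CPM on 129. Naive Jchain stood at 147, 257 and 98.8 CPM in replicates 1, 2 and 3 on 129. On each allele Jchain and Slamf7 were highest in naive replicate 2, where the macrophage markers were lowest. The part of the macrophage markers' fall in these falls was not tested.

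Of 10 genes that Xbp1 induces in the unfolded protein response, 8 were tested on each allele. On 129, 3 of the 8 were higher and 1 lower, near the 28.2% of all genes that were higher. On Cast, 5 of the 8 were higher and 0 lower, where 30.7% of all genes were higher. Derl3, which helps to export misfolded proteins from the endoplasmic reticulum, rose by 3.05 on 129 and 2.09 on Cast (log2, edgeR adjusted p = 1.13e-04 and 1.94e-04). Sdf2l1, an endoplasmic reticulum chaperone cofactor, rose by 2.42 and 2.74 (edgeR adjusted p = 1.99e-04 and 2.25e-04). Without naive replicate 1 the Cast change of Sdf2l1 was 3.34 (edgeR adjusted p = 1.79e-04).

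Most other IRF genes were lower after CpG. Of 7 listed, 6 were tested on each allele, and 5 of the 6 were lower and 0 higher on each, where 27.0% of all genes on 129 and 31.5% on Cast were lower. The median log2 fold change was -1.69 on 129 and -1.51 on Cast. Irf7, which drives type I interferon genes, fell from 114 ± 21.3 to 3.44 ± 1.14 CPM on 129 (SD, n = 3), with log2 fold changes of -5.03 on 129 and -5.29 on Cast (edgeR adjusted p = 1.66e-05 and 4.73e-06). Irf1 fell as well, at -2.60 and -2.87 (edgeR adjusted p = 3.12e-05 and 5.69e-06). Macrophages express several of these genes, and the part of the macrophage markers' fall was not tested. On each allele naive Irf1 was highest in replicate 2 and naive Irf7 in replicate 1, and each was lowest in replicate 3.

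Interaction partners of the factors mostly fell or did not pass. Of 14 listed, 13 were tested on 129, with 1 higher and 8 lower, and 12 on Cast, with 2 higher and 6 lower. Over all genes 27.0% on 129 and 31.5% on Cast were lower. Myeloid cells express several of these partners, and the macrophage markers fell between the same samples, from between 3362 and 7428 to between 29.8 and 38.5 CPM on 129. Their part in the partners' fall was not tested. Bach1, the paralogue of Bach2 that shares its small MAF partners, fell, with log2 fold changes of -1.76 on 129 and -1.53 on Cast (edgeR adjusted p = 7.14e-05 and 1.01e-04), while Bach2 gave 0.26 and 0.10. Hdac3, a histone deacetylase, rose by 1.09 on 129 and 1.08 on Cast (log2, edgeR adjusted p = 0.00128 and 2.26e-04).

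**Figure D5:**
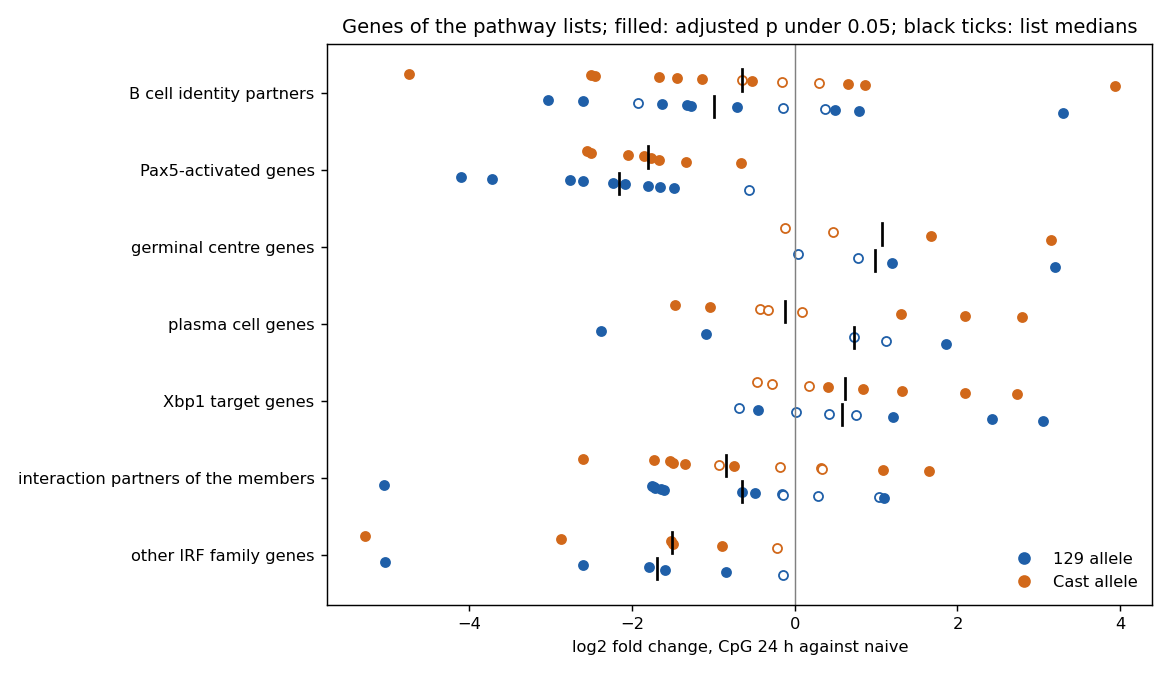
Log2 fold change after CpG (x axis) of the genes in 7 lists tied to the factors, with 1 point per tested gene, blue for the 129 and orange for the Cast allele, filled where the adjusted p was under 0.05, and black ticks for list medians. All tested genes that Pax5 activates lie below 0, with medians of -2.16 and -1.81.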

How the data were processed

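RNA-seq libraries of total RNA were made with a stranded kit, per the labels' protocols. STAR, featureCounts, Subread 2.0.0 and the mm10 build are named, with no role, in the submitters' processing notes. The authors deposited raw read counts per gene for each sample, in a 129 and a Cast table, per the file headers. How reads were given to a strain, and whether strand was used in counting, is not given in the sources used here, so overlapping antisense genes cannot be told apart. The other 12 of the 18 samples, and the authors' table of X-linked genes, were not analysed here.

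Rows that name no gene (reads not aligned, without a feature or ambiguous) stayed out of totals and tests. They held 90.8% to 95.0% of the reads in the 129 and 89.4% to 93.8% in the Cast tables. Each strain's table was fitted whole with edgeR 4.0.16 in R 4.3.3 (TMM, filterByExpr, robust quasi-likelihood test, Benjamini-Hochberg adjustment over all genes, threshold 0.05). A standard error is the log2 fold change over the root of F. CPM use TMM-scaled totals. The allele ratio fit had a term for each sample, 1 library size for both alleles, and kept genes whose alleles together reached 10 reads in 3 or more samples. Wilson intervals show counting error alone. PCR copies were not marked by molecular identifiers, so reads may not be independent and the intervals may be too narrow. No pair of samples agreed within sampling noise. Scripts were tested on simulated data. DESeq2 1.42.0 was an alternative.

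Same-numbered naive and stimulated samples deviated together. Pearson's r across genes was 0.443 to 0.608 in the 129 and 0.163 to 0.246 in the Cast tables. The numbers may therefore pair the samples. That pairing rests on the numbers in the titles and this check alone, because the labels do not state it. The main fits did not use it, and the replicate block was an alternative fit. The block raised the number of genes called in the ratio test.

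The factors and gene lists were chosen with earlier results of these data known. All 10 factors are named. From each other list, up to 2 genes of largest rise and 2 of largest fall are named, among those called on both alleles with a mean of at least 100 reads in a group. One gene that this rule names is not reported here. Promoters are from RefSeq (GRCm38.p6), and all 10 factors matched.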

Additional observations from a re-analysis of the deposited data

Results flagged for a closer look

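Irf4 was singled out because its alleles responded unequally to CpG by a test of the difference itself. The log2 change of its Cast-to-129 ratio was 0.63 (SE 0.092, edgeR adjusted p = 0.0341), and its Cast share was higher in 3 of 3 stimulated samples than in any naive one. Of the nearest genes in the reference order with at least 50 reads in every sample, picked after the Irf4 values were seen, Cdkal1 on one side had Cast shares of 51.3% ± 0.715 and 50.8% ± 3.12 in naive and stimulated samples, and Exoc2 on the other had 57.9% ± 8.99 and 52.6% ± 6.80 (SD, n = 3). Their ratio changes were -0.028 and -0.32 and did not pass (edgeR adjusted p = 1 and 0.886).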

How the results depend on the processing

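Each of the 10 factors kept its direction on the 129 allele under all 11 alternatives tried for it, and on the Cast allele Irf4 alone turned, to -0.032 with the alleles summed. The number of factors called ran from 6 to 9 on 129 and from 6 to 7 on Cast over the fits without 1 sample, and was 7 on each with the alleles summed. Pax5 on Cast also missed the threshold with library totals alone (-0.46, edgeR adjusted p = 0.0559). The replicate block changed no call among the 10 in the expression tests, and in the ratio test it changed the call of Irf8 alone, giving 2 factors called.

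The count of genes with a changed allele ratio was 95, and it was 14 to 26 over the fits without 1 sample and 779 with the replicate block. In the fits without 1 sample 0 to 0 of the 10 factors were called. DESeq2 called 139 genes and 1 factor, and a library size for each table gave 81 genes, 63.0% of them toward Cast against 52.6%. The ratio counts in naive cells were 1836 to 2618 without 1 sample against 2756, with 1 to 2 factors called against 2, and 1 factor with at least 50 reads in every sample, which leaves Prdm1 out. In stimulated cells they were 1932 to 2571 without 1 sample against 2771, with 2 to 4 factors called against 3. Fewer samples give each fit less to estimate the spread from; beyond that the cause was not tested.

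Small ratio changes turned in the fits without 1 sample: Ebf1 ran from -0.20 to 0.046, Spib from -0.079 to 0.27 and Batf from -0.34 to 0.12. The naive ratio of Bach2 ran from -0.0060 to 0.073 there, and the stimulated ratio of Xbp1 from -0.077 to 0.18. With a library size for each table, the naive ratios of Bach2 and Irf8 were -0.11 and -0.12 and the stimulated ratio of Xbp1 was -0.0072. Depth limits Prdm1 above all, with 4 to 19 naive reads per sample over both alleles.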

Other observations

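Allele shares near Spib and Xbp1 followed the replicate number. Emc10, the nearest well covered gene on one side of Spib on chromosome 7 in the reference order, had Cast shares of 53.2%, 89.6% and 91.2% in naive replicates 1, 2 and 3 and of 54.9%, 85.8% and 89.5% in the stimulated ones. Spib itself had 48.7%, 54.8% and 54.5% and then 46.1%, 58.1% and 56.5%, with replicate 1 lowest in each group. Its other neighbour, Pold1, had 42.1%, 36.9% and 38.9% in naive samples. Near Xbp1 on chromosome 11, Ccdc117 had 68.8%, 50.7% and 73.1% in naive and 69.2%, 55.2% and 73.9% in stimulated samples, with replicate 2 lowest in each group. Xbp1 had 53.6%, 58.0% and 58.1% and then 48.1%, 56.9% and 49.2%. Such shares were not confined to these places. Blnk, a listed gene on chromosome 19, had 45.8%, 44.5% and 74.2% in naive and 43.9%, 44.9% and 72.3% in stimulated samples. Ikzf1 on chromosome 11 did not follow the number, with 49.2%, 49.3% and 53.9% and then 52.0%, 49.6% and 49.8%. How many listed genes did so was not counted. All these genes were picked after their values were seen, and no test was made.

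Genes with the most similar course over the 12 values (6 samples on each allele, log2 CPM centred per allele) were found among 7336 genes with at least 100 reads on average in a group. Lbh, a transcription cofactor, was nearest to Spib with a root mean square difference of 0.13, and Inpp5d, which encodes the phosphatase SHIP1, was next at 0.16. Exo1, a DNA exonuclease of mismatch repair, was nearest to Batf (0.18), followed by Trip13 (0.26). For Irf8 it was Hsd17b4 (0.054) and for Xbp1 Polr2m (0.10). Pax5 lay nearest to Traf3ip2 (0.11) and St6gal1 (0.12), Ebf1 to Zfp260 (0.12), Bach2 to Zcchc4 (0.080), Bcl6 to Arnt (0.10) and Irf4 to Marf1 (0.12). Prdm1, with 16, 19 and 4 naive reads over both alleles, had no close match, and Zfp599 was nearest at 0.63. The part of counting noise in that distance was not tested.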
